A study of Mus musculus with 16 samples.

Results

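Glycolysis breaks glucose down to pyruvate, and most of its controlled steps can be run by several isoforms encoded by different genes. The 10 genes described here encode the transporter GLUT1 (Slc2a1), the hexokinases 1, 2 and 3 (Hk1, Hk2, Hk3), the liver-type and platelet-type subunits of phosphofructokinase (Pfkl, Pfkp), the regulatory enzyme Pfkfb3, pyruvate kinase (Pkm) and the A and B subunits of lactate dehydrogenase (Ldha, Ldhb). They were taken by symbol, 10 of the 20101 genes in the expression table of mouse epididymal white fat, the pad that lies against the epididymis. Each of the 10 reached 1 FPKM or more in all 16 libraries. FPKM scales the fragments of a gene by transcript length and by library size, so levels of different genes can be set side by side.

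As background, glucose enters fat cells mainly through the insulin-responsive transporter GLUT4 (Slc2a4), and hexokinase 2 is the main hexokinase of insulin-responsive tissues. GLUT1, hexokinase 1 and hexokinase 3 are known from leukocytes, hexokinase 3 above all from myeloid cells. Phosphofructokinase, the committed step, is a tetramer of muscle (Pfkm), liver and platelet subunits; lactate dehydrogenase is a tetramer in which more A subunit is usual where lactate is made and more B subunit where it is used. The comparisons below ask how these levels, and the balance between the adipocyte-type and the leukocyte-type isoform of a step, differed with diet and with genotype label.

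The tissue came from mice aged 21 weeks, 4 per group. Chow WT and chow KO mice ate chow with 5% fat, and HFD WT and HFD KO mice had received a high-fat diet (HFD) with 60% fat since the age of 5 weeks. The titles say WT and KO where the genotype field says ApoA4 knockdown for the latter; the sources used here give neither the strain nor the way the gene was targeted. Apoa4, which encodes apolipoprotein A-IV, was listed at 0 to 0.29 FPKM in the 8 WT-labelled libraries and at 1.96 to 9.63 FPKM in the 8 KO-labelled ones, higher where a loss was labelled. WT and KO therefore stand for labels throughout.

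Summed FPKM ranged from 413167 to 468186 per library, with 11554 to 13184 genes at 1 FPKM or more. The adipocyte marker Adipoq was present in every library, at 207 to 4573 FPKM. Genes of the epididymis (10 listed) held 2.60% of the summed FPKM of chow KO replicate 2, 1.18% for HFD KO replicate 4 and 0.0848% for its replicate 2. In the other 13 libraries they held 0.00853% or less. For many results that involve the libraries with epididymal genes, the outcome without them is also given. In bulk tissue, fewer cells of a type and less RNA per cell cannot be told apart. The limma p-values rest on how far the 4 mice within each group lie apart, as 1 spread per gene pooled over all 4 groups and moderated across genes. A gene thus has the same SE in each comparison of 2 groups, whatever the spread of those 2 groups.

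High-fat feeding went with higher Slc2a1, Hk1, Hk3, Pfkp and Pkm under both genotype labels, while Ldhb was lower in WT-labelled and Hk2 in KO-labelled mice. In WT-labelled mice 5 of the 10 genes rose and 1 fell at an adjusted p under 0.05 (limma, adjusted over the 12667 genes tested), beside 24.6% of all tested genes higher and 17.2% lower (41.9% in all). In KO-labelled mice 5 rose and 1 fell too, beside 23.5% higher and 15.3% lower (38.9% in all). Both counts lie not far above the background, so they say little about these genes as a set. Hk1 and Hk3 rose under both labels while Hk2 went down, called in KO-labelled mice only. Ldha and Ldhb went in opposite directions in WT-labelled mice only, and Pfkl and Pfkp both went up under both labels. The median log2 difference of the 10 was 0.67 in WT-labelled and 0.35 in KO-labelled mice, and 0.06 and 0.08 over all tested genes. The 2 diet groups did not overlap for 7 of the 10 genes in WT-labelled mice, where 46.9% of tested genes did not, and for 3 of the 10 in KO-labelled mice, where 28.7% did not.

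**Figure D1:**
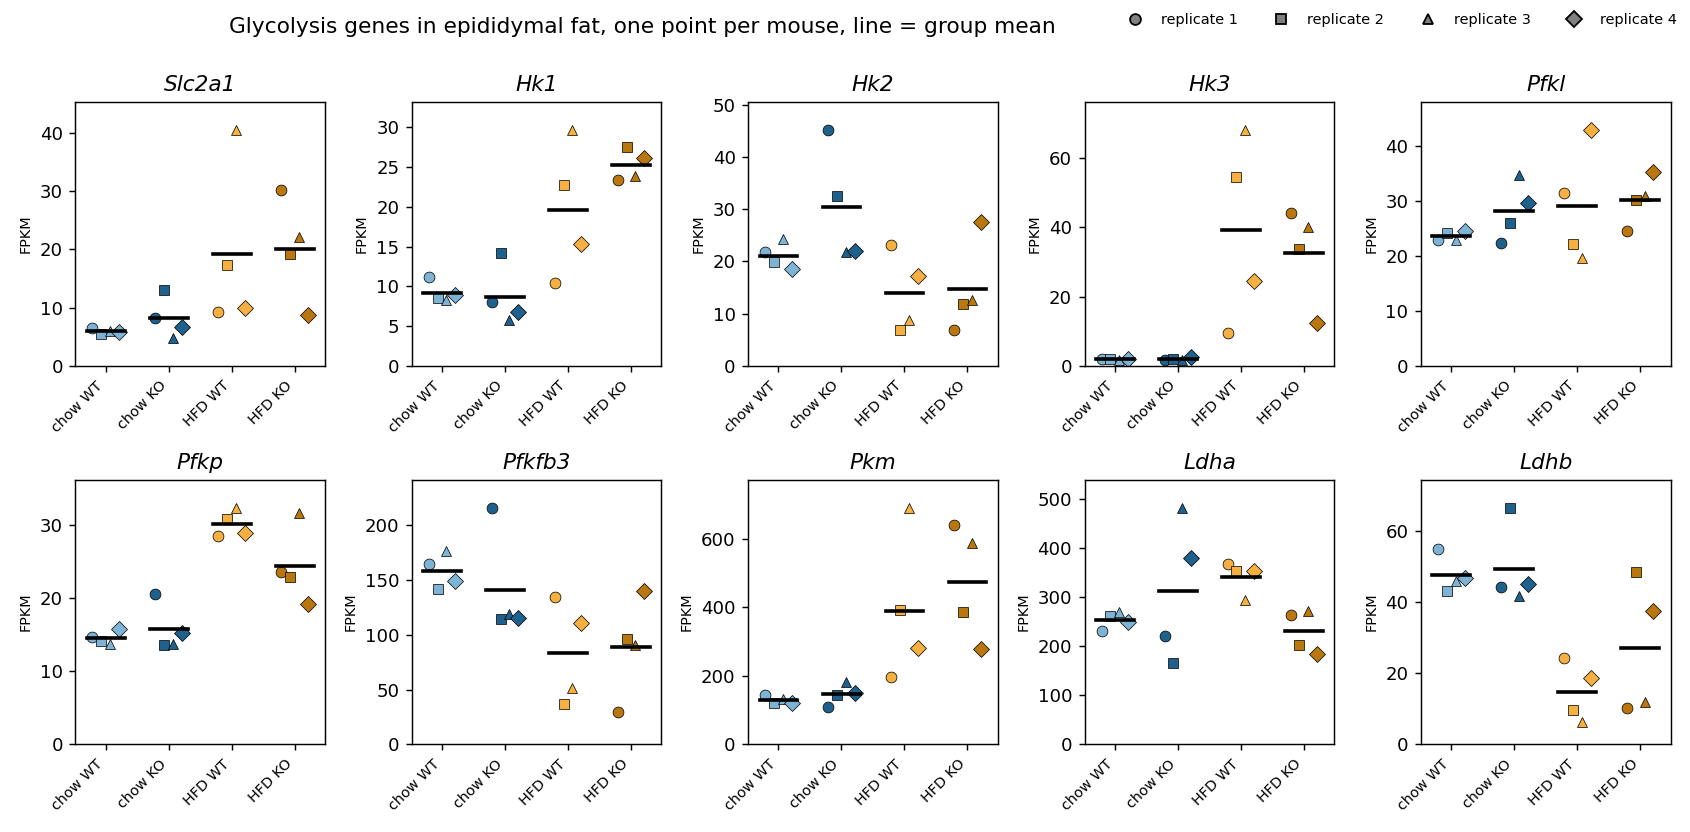
Level of each gene in FPKM (vertical axes start at 0) in every library, with a symbol per replicate, a colour per group and a line at the group mean of 4 mice. Hk3 lies between 1.67 and 2.48 FPKM in all chow libraries and between 9.46 and 68.0 FPKM in all HFD libraries, whereas Pfkl overlaps between diets under both labels.

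Slc2a1 (chr4:119108745-119137330, GRCm38.p6) encodes GLUT1, the transporter that works without insulin. It stood at 6.55, 5.49, 5.96 and 5.86 FPKM in chow WT and at 9.2, 17.3, 40.5 and 10.02 FPKM in HFD WT. All HFD WT libraries were above all chow WT libraries, with replicate 3 far above the rest. Slc2a1 rose by 1.30 on the log2(FPKM + 1) scale (SE 0.42, adjusted p = 0.0215). Without HFD WT replicate 3 the difference was 0.87 (adjusted p = 0.0726), and without HFD WT replicate 2 it was 1.26 (adjusted p = 0.0501), so 1 library decides this call.

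In KO-labelled mice Slc2a1 stood at 8.28, 13.02, 4.76 and 6.65 FPKM on chow and at 30.2, 19.2, 22.1 and 8.77 FPKM on HFD. Replicate 4 of HFD KO lay inside the chow range, and the highest chow value was that of replicate 2, the library with the most epididymal RNA. The rise was 1.16 (SE 0.42, adjusted p = 0.0389), and it also passed without the 3 libraries with epididymal genes. It fell short of the threshold when replicate 1, 3 or 4 of the chow KO group or replicate 1, 2 or 3 of the HFD KO group was left out (0.93 to 1.19, adjusted p 0.0639 to 0.122), and also with median-of-ratios size factors (adjusted p = 0.0517), quantile normalization (adjusted p = 0.0545), no filter (adjusted p = 0.0778) or the 2 groups alone (adjusted p = 0.0511).

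Slc2a4, the adipocyte-type partner, was 36.9 ± 4.96 FPKM (SD, n = 4) in chow WT and 23.3 ± 15.9 in HFD WT, a log2 difference of -0.88 (SE 0.45) that did not pass (adjusted p = 0.133; it was -1.25 and passed, adjusted p = 0.0286, without HFD WT replicate 1). In KO-labelled mice it fell from 64.9 ± 22.6 to 18.3 ± 9.30 FPKM (-1.89, SE 0.45, adjusted p = 0.00516), and the groups did not overlap. GLUT1 made up 13.7%, 13.6%, 12.8% and 15.998% of the summed Slc2a1 and Slc2a4 FPKM in chow WT, and 17.5%, 58.6%, 81.6% and 26.1% in HFD WT. It made up 7.88%, 23.0%, 7.39% and 10.01% in chow KO and 82.5%, 43.6%, 58.9% and 24.8% in HFD KO. Every HFD library thus had a higher GLUT1 share than every chow library of its label, though the HFD libraries ranged widely. The sum of both transporters was 42.8 ± 5.25 FPKM in chow WT and 42.5 ± 10.7 in HFD WT, and 73.1 ± 21.7 in chow KO and 38.3 ± 3.82 in HFD KO.

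The balance of 2 isoforms was tested as the log2 ratio of their FPKM within a library, which does not depend on library scaling, with an exact two-sided permutation test. With 4 against 4 mice the smallest p this test can give is 0.0286, and p was adjusted over the 6 ratios of a comparison. Where the diets separate completely, the exact p is this smallest value. Whether it passes after adjustment then depends on the other ratios of the comparison. The Slc2a1 to Slc2a4 ratio was higher on HFD by 2.33 log2 units in WT-labelled mice (exact p = 0.0286, adjusted 0.0343), and by 1.53 when HFD WT replicate 3 was left out. In KO-labelled mice it differed by 3.20 (exact p = 0.0286, adjusted 0.0571), short of the threshold after adjustment although the 8 libraries separated completely. Whether the ratios' diet differences differ between labels was not tested.

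The 3 hexokinases phosphorylate glucose on entry, and of the 6 isoform ratios that of Hk3 to Hk2 differed most between the diets under both labels. Printed here are stretches upstream of the annotated starts of Hk2 and Hk3, the pair behind that ratio: chr6:82774455-82774704 for Hk2 and chr13:55021476-55021635 for Hk3 (both on the minus strand, GRCm38.p6, from RefSeq, outside the annotated gene). Capitals mark ACGTG or GCGTG, cores bound by hypoxia-inducible factors, and GAGGAA, a core bound by the myeloid factor PU.1, on either strand.
Hk2: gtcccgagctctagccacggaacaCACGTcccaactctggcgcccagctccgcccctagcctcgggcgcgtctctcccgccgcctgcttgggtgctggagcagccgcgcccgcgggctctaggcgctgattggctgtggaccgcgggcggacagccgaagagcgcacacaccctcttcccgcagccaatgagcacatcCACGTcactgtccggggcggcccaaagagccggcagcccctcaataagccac
Hk3: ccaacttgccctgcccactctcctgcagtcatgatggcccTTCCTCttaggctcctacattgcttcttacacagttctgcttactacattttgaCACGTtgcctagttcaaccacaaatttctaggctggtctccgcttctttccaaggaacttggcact
Hk2 had ACGTG at 2 places and no GAGGAA, and Hk3 had 1 of each. The Hk3 stretch is shorter, at 160 bases, because RefSeq places the gene in the rest of the window. Of 32851 RefSeq start regions of 250 bases, 16.6% held ACGTG, 28.2% GCGTG and 23.3% GAGGAA on either strand, so neither match is unusual, and a match shows no binding.

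Hk3 (chr13:55005985-55021475) was the member with the largest difference. Its level was 1.87, 1.91, 1.82 and 1.9 FPKM in chow WT and 9.46, 54.4, 68.0 and 24.5 FPKM in HFD WT. In KO-labelled mice it was 1.77, 2.1, 1.67 and 2.48 FPKM on chow and 44.0, 33.7, 40.0 and 12.5 FPKM on HFD. Chow libraries were alike and HFD libraries spread over several-fold, with no overlap under either label. Hk3 rose by 3.47 (SE 0.48, adjusted p = 0.00011) in WT-labelled and by 3.35 (SE 0.48, adjusted p = 0.000197) in KO-labelled mice. Both calls held in each of the fits with another setting or without a library.

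Hk1 (chr10:62268855-62379920), the hexokinase of most tissues, was 11.1, 8.58, 8.23 and 8.89 FPKM in chow WT and 10.4, 22.7, 29.7 and 15.3 FPKM in HFD WT. In chow KO it was 7.98, 14.2, 5.82 and 6.82 FPKM and in HFD KO 23.4, 27.5, 23.8 and 26.1 FPKM. The HFD KO libraries lay close together and above all chow KO libraries, while HFD WT replicate 1 lay inside the chow WT range. The highest Hk1 of each KO-labelled group was in libraries with epididymal genes, replicate 2 on chow and replicates 2 and 4 on HFD. The part of epididymal RNA in the Hk1 values was not tested further. Hk1 rose by 0.92 in WT-labelled (SE 0.27, adjusted p = 0.0144) and by 1.50 in KO-labelled mice (SE 0.27, adjusted p = 0.000979). The first of these rested on HFD WT replicate 3, without which it was 0.69 (adjusted p = 0.0531). The second held in each alternative fit, also without the 3 libraries with epididymal genes.

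Hk2 (chr6:82725025-82774454) was 21.8, 19.9, 24.3 and 18.6 FPKM in chow WT and 23.1, 6.93, 8.81 and 17.3 FPKM in HFD WT. It was 45.2, 32.6, 21.8 and 22.1 FPKM in chow KO and 6.97, 11.8, 12.6 and 27.5 FPKM in HFD KO. On HFD, replicate 1 of WT and replicate 4 of KO kept chow-like levels, so the diets overlapped under both labels. The difference was -0.69 in WT-labelled mice (SE 0.38, adjusted p = 0.158; -0.97 and adjusted p = 0.0497 without HFD WT replicate 1). In KO-labelled mice Hk2 fell by 1.09 (SE 0.38, adjusted p = 0.0347), a call lost when replicate 1 or 2 of the chow KO group or replicate 1, 2 or 3 of the HFD KO group was left out (-0.82 to -1.07, adjusted p 0.0596 to 0.119), without a filter (adjusted p = 0.0696) and with the 2 groups alone (adjusted p = 0.0634). The Hk2 call held without the 3 libraries with epididymal genes.

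Of the summed hexokinase FPKM, Hk2 held 65.5% ± 3.66 (SD, n = 4) in chow WT and 25.1% ± 21.7 in HFD WT, and 73.4% ± 6.70 in chow KO and 20.9% ± 14.2 in HFD KO. Hk3 held 5.86% ± 0.606 and 48.4% ± 20.3 in WT-labelled mice on chow and on HFD, and 5.28% ± 2.02 and 44.1% ± 17.7 in KO-labelled mice. The leading hexokinase transcript was Hk2 in all 8 chow libraries, Hk3 in 6 HFD libraries, and Hk2 in HFD WT replicate 1 (53.8%) and HFD KO replicate 4 (41.7%). The share of Hk1 was 28.6% ± 3.44 in chow WT and 26.5% ± 1.58 in HFD WT, and 21.3% ± 6.02 in chow KO and 34.9% ± 4.24 in HFD KO. In HFD KO it was 37.7% and 39.5% in replicates 2 and 4, which hold epididymal genes, and 31.5% and 31.2% in replicates 1 and 3. The summed level was 32.2 ± 2.74 FPKM in chow WT and 72.7 ± 28.3 in HFD WT, and 41.1 ± 12.7 in chow KO and 72.4 ± 4.44 in HFD KO.

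The log2 ratio of Hk3 to Hk2 was higher on HFD by 4.70 in WT-labelled mice (exact permutation p = 0.0286, adjusted 0.0343) and by 4.97 in KO-labelled mice (exact p = 0.0286, adjusted 0.0571). That of Hk1 to Hk2 differed by 1.72 (exact p = 0.0857, adjusted 0.0857) and 2.76 (exact p = 0.0286, adjusted 0.0571). In WT-labelled mice the Hk3 to Hk2 ratio thus passed, and in KO-labelled mice both ratios separated the diets completely without passing after adjustment. The exact p of the Hk3 to Hk2 ratio was the same under both labels. The other ratios of each comparison decided whether it passed, so the 2 adjusted values do not rank the labels. Leaving out each library in turn kept the Hk3 to Hk2 difference between 4.14 and 5.55 in WT-labelled and between 4.48 and 5.74 in KO-labelled mice.

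**Figure D2:**
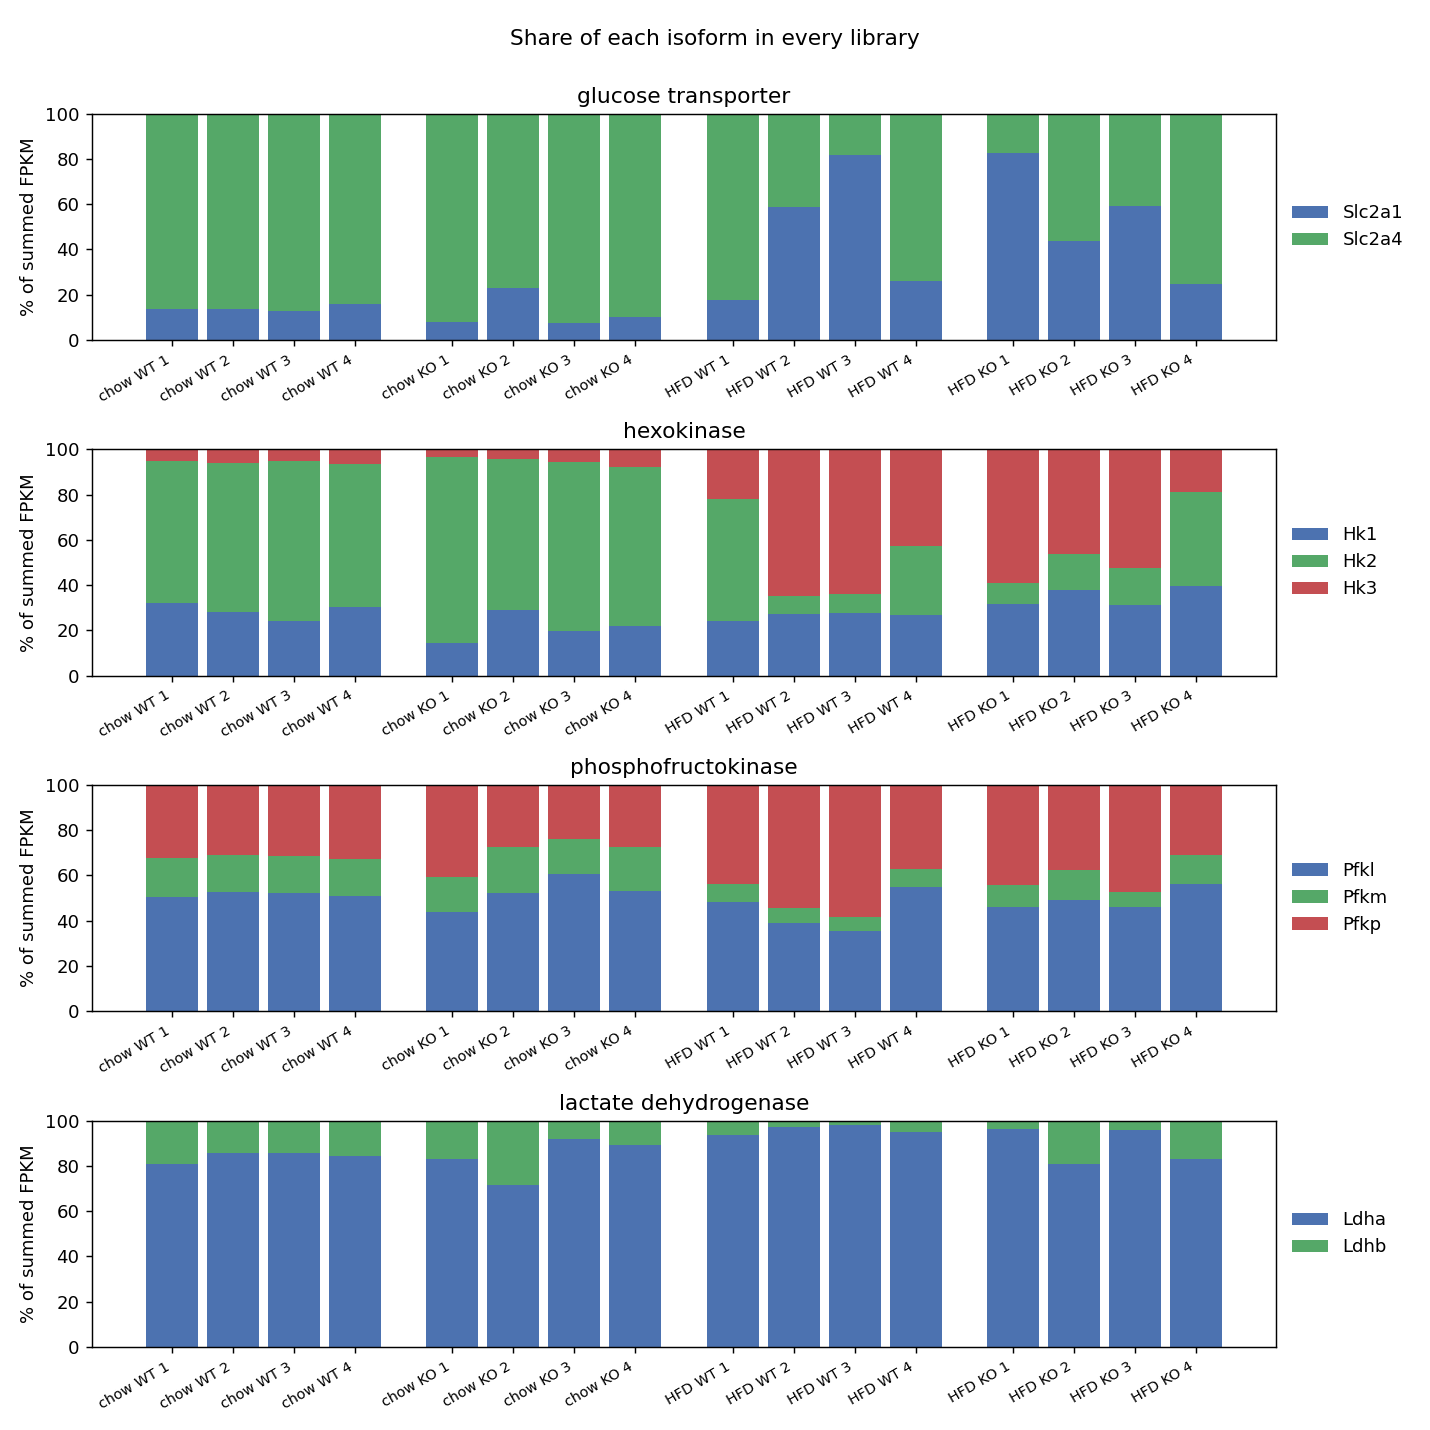
Share of each isoform in the summed FPKM of its step, in percent, as 1 stacked bar per library. The Hk3 share is between 3.22% and 7.91% in the chow libraries and between 18.9% and 64.7% in the HFD libraries, and the Ldhb share is between 2.06% and 6.20% in HFD WT but reaches 19.3% in HFD KO.

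Markers of macrophages and of adipocytes moved with these values. Of 10 macrophage markers (Cd68, Adgre1, Csf1r and others), 9 rose with HFD in WT-labelled and 10 in KO-labelled mice, and of 10 markers of lipid-associated macrophages (Trem2, Gpnmb and others) 9 rose under each label. Lpl stands in the last list and in that of adipocytes. Of 10 adipocyte markers 7 fell and none rose under each label. Over all tested genes, 24.6% were higher and 17.2% lower in WT-labelled mice, and 23.5% and 15.3% in KO-labelled mice. The summed macrophage markers were 958 to 1026 FPKM in chow WT and 771 to 947 in chow KO, none at 0 in any library. They were 1873, 6697, 7962 and 3807 FPKM in HFD WT and 8550, 4165, 6420 and 2456 FPKM in HFD KO. Within each HFD group, Hk3 had the same order of libraries as this sum. The lowest Hk3 was found in HFD WT replicate 1 and HFD KO replicate 4, the lowest in macrophage RNA and the highest in Hk2 of their groups.

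Summed adipocyte markers were 31996 to 34447 FPKM in chow WT and 6580 to 20207 in HFD WT, and 17273 to 40882 in chow KO and 4208 to 15760 in HFD KO. Summed markers of lipid-associated macrophages were 1394 to 2967 FPKM over the chow libraries and 2781 to 11491 FPKM over the HFD libraries. Lpl alone, also listed as an adipocyte marker, was 919 to 2847 FPKM over all libraries, a large part of the chow sums. Of the other lists, neutrophil markers summed to 8.1 to 17.9 FPKM on chow and to 22.4 to 59.9 in HFD WT and 16.8 to 291 in HFD KO, with Ly6g listed at 0 in 12 libraries. With HFD, 1 of 5 tested neutrophil markers was higher and 1 lower in WT-labelled mice, and 2 were higher and 1 lower in KO-labelled mice. The 9 lymphocyte markers with an entry summed to 5.83 to 27.4 FPKM in all libraries; of 7 tested, 3 fell in WT-labelled and 0 in KO-labelled mice. Of 8 endothelial markers 0 changed in WT-labelled mice and 1 rose in KO-labelled mice. Red-cell genes summed to 3213 to 8344 FPKM in chow WT and to 360 to 3914 FPKM in the other groups, with 1 of 5 tested lower on HFD in WT-labelled mice and 0 changed in KO-labelled mice. Skeletal muscle genes summed to 108 to 265 FPKM in chow WT and to 6.41 to 81.2 FPKM elsewhere, with Myh4 at 0.06 or less in each library and listed at 0 in 11; of 2 tested, 1 was higher and 1 lower on HFD in WT-labelled mice and 1 higher in KO-labelled mice. Of 4 tested epididymal genes 0 changed with diet. With so few tested genes in a list, a count of 1 says little beside the shares over all tested genes given above. The part of any of these cell types in the glycolysis results was not tested.

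**Figure D3:**
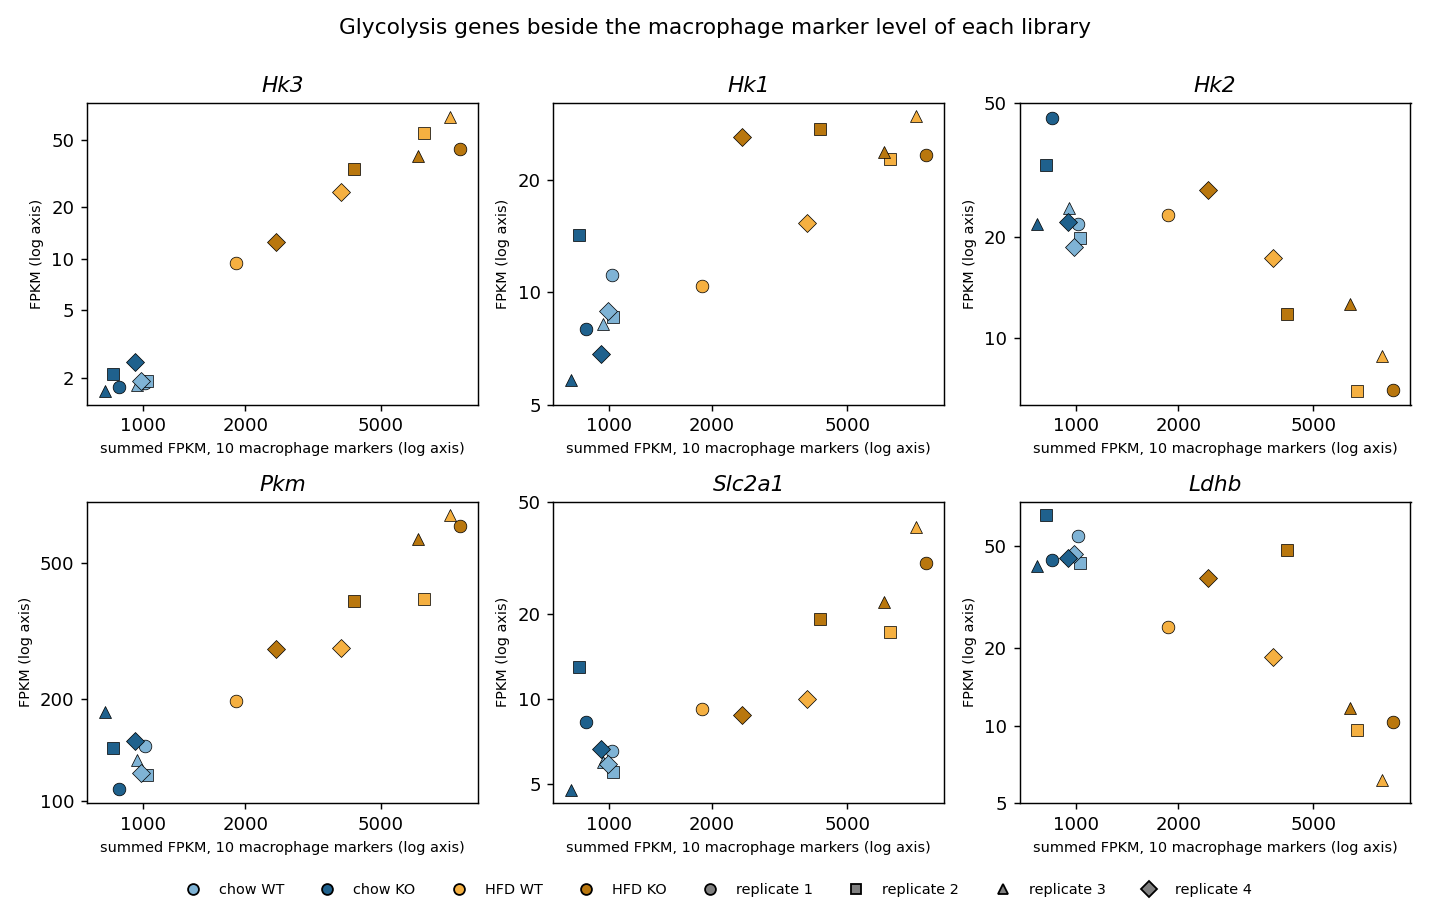
FPKM of 6 of the genes against the summed FPKM of 10 macrophage markers, both on log axes, 1 point per library with colour for group and symbol for replicate. Chow libraries lie between 771 and 1026 on the horizontal axis and HFD libraries between 1873 and 8550; Hk3, Pkm and Slc2a1 are higher and Hk2 and Ldhb lower towards the right.

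Phosphofructokinase turns fructose 6-phosphate into the bisphosphate that commits sugar to glycolysis. Pfkp (chr13:6579874-6649060), the platelet type, was 14.7, 14.2, 13.7 and 15.8 FPKM in chow WT and 28.5, 30.8, 32.4 and 29.0 FPKM in HFD WT. It was 20.6, 13.6, 13.8 and 15.3 FPKM in chow KO and 23.6, 23.0, 31.8 and 19.3 FPKM in HFD KO. The WT-labelled groups were tight and far apart, and unlike Hk3, Pfkp hardly varied among the HFD WT libraries. It rose by 1.001 (SE 0.15, adjusted p = 0.000163) in WT-labelled and by 0.59 (SE 0.15, adjusted p = 0.00574) in KO-labelled mice, where HFD KO replicate 4 lay below chow KO replicate 1. Both calls held in each alternative fit.

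Pfkl (chr10:77986947-78009807), the liver type, had the smallest differences with diet. It ranged from 22.9 to 24.5 FPKM in chow WT and 19.6 to 42.9 in HFD WT, and from 22.2 to 34.6 in chow KO and 24.5 to 35.2 in HFD KO. Its log2 difference was 0.22 in WT-labelled (SE 0.20, adjusted p = 0.399) and 0.11 in KO-labelled mice (SE 0.20, adjusted p = 0.700). The sign of the second changed with quantile normalization and without the 3 libraries that held epididymal genes.

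The muscle-type subunit Pfkm was the least abundant of the 3, at 7.57 ± 0.321 FPKM in chow WT and 4.57 ± 1.26 in HFD WT, and 9.30 ± 1.23 in chow KO and 6.37 ± 1.97 in HFD KO. It fell by 0.65 (SE 0.19, adjusted p = 0.0129) and by 0.52 (SE 0.19, adjusted p = 0.0407). The second call was lost when replicate 2, 3 or 4 of the chow KO group or replicate 1 or 3 of the HFD KO group was left out (-0.37 to -0.54, adjusted p 0.0637 to 0.139). That call was also lost without a filter (adjusted p = 0.0667) and with the 2 groups alone (adjusted p = 0.0986). The Pfkm share of summed phosphofructokinase FPKM was 16.6% ± 0.658 in chow WT and 7.08% ± 0.878 in HFD WT, while that of Pfkp was 31.8% ± 0.833 and 48.5% ± 9.75. In KO-labelled mice Pfkm held 17.5% ± 2.44 on chow and 10.5% ± 3.18 on HFD, and Pfkp 29.9% ± 7.28 and 40.0% ± 7.40. Pfkl held between 35.4% and 60.6% in every library. The Pfkp to Pfkm ratio was higher on HFD by 1.80 log2 units and the Pfkl to Pfkm ratio by 0.98 in WT-labelled mice (each exact p = 0.0286, adjusted 0.0343). In KO-labelled mice they differed by 1.20 and 0.70 (each exact p = 0.0571, adjusted 0.0686).

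Pfkfb3 (chr2:11471430-11554071) makes fructose 2,6-bisphosphate, the strongest activator of phosphofructokinase. It stood at 164, 141, 177 and 149 FPKM in chow WT and at 134, 36.7, 51.2 and 111 FPKM in HFD WT. It stood at 215, 115, 119 and 115 FPKM in chow KO and at 29.4, 96.1, 90.4 and 140 FPKM in HFD KO. All HFD WT libraries were below all chow WT libraries, while HFD KO replicate 4 was above 3 of the 4 chow KO libraries. The log2 difference was -1.10 in WT-labelled mice (SE 0.44, adjusted p = 0.0583) and -0.80 in KO-labelled mice (SE 0.44, adjusted p = 0.167), neither past the threshold. The first passed without HFD WT replicate 1 (-1.39, adjusted p = 0.0210) or replicate 4 (-1.30, adjusted p = 0.0443) and with median-of-ratios size factors (-1.16, adjusted p = 0.0447), and the second without the 3 libraries with epididymal genes (-1.45, adjusted p = 0.0399). As with Hk2, the lowest levels were in the HFD libraries with the most macrophage RNA.

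Pkm (chr9:59656576-59679372) encodes the pyruvate kinase of most tissues outside liver and red cells, in M1 and M2 forms that differ by 1 exon and that a value per gene cannot separate. Its level was 145, 120, 132 and 121 FPKM in chow WT and 197, 391, 689 and 281 FPKM in HFD WT. It was 108, 143, 183 and 151 FPKM in chow KO and 641, 387, 587 and 279 FPKM in HFD KO. No HFD library fell to the chow range of its label, and replicate 1 of WT and replicate 4 of KO were the lowest on HFD. Pkm rose by 1.43 (SE 0.33, adjusted p = 0.00337) in WT-labelled and by 1.63 (SE 0.33, adjusted p = 0.00183) in KO-labelled mice, in each alternative fit.

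Lactate dehydrogenase interconverts pyruvate and lactate. Stretches of 250 bases upstream of a start of Ldha and of Ldhb are shown (GRCm38.p6, RefSeq). That of Ldha is chr7:46845554-46845803 (plus strand), upstream of a start inside its annotated span, and that of Ldhb is chr6:142507958-142508207 (minus strand). They are shown because the Ldha to Ldhb ratio separated the diets in WT-labelled mice, though not in KO-labelled mice. Capitals mark the same motifs as above.
Ldha: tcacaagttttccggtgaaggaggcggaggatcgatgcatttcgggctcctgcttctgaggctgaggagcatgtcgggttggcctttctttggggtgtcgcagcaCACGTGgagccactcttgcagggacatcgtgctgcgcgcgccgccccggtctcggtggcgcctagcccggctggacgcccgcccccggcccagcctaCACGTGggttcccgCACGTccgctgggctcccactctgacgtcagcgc
Ldhb: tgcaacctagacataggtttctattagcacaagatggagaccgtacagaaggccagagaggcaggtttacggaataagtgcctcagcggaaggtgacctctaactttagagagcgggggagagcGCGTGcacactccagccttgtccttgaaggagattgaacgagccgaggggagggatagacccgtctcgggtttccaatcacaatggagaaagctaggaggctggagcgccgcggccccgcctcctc
The Ldha stretch held ACGTG 5 times, 4 of them as both strands of 2 CACGTG boxes, and the Ldhb stretch held GCGTG 1 time and ACGTG 0 times. Of the 32851 start regions, 6.02% held CACGTG. Over all 10 genes, each of which had a RefSeq start, the other stretch with CACGTG was that of the second start of Pfkfb3.

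Ldhb (chr6:142490249-142507957) was 54.95, 43.1, 45.8 and 46.8 FPKM in chow WT and 24.3, 9.59, 6.17 and 18.5 FPKM in HFD WT. It was 44.3, 66.3, 41.8 and 44.9 FPKM in chow KO and 10.3, 48.4, 11.8 and 37.5 FPKM in HFD KO. The WT-labelled groups did not overlap, and Ldhb fell by 1.80 (SE 0.45, adjusted p = 0.00554), also in each alternative fit. In KO-labelled mice 2 HFD libraries were as low as in HFD WT while replicate 2 lay in the chow range and replicate 4 just under it; these last 2, and the chow library with the highest Ldhb, are the 3 with epididymal genes. The difference was -1.11 (SE 0.45, adjusted p = 0.0631), and it passed without HFD KO replicate 2 (-1.48, adjusted p = 0.0166), without HFD KO replicate 4 (-1.36, adjusted p = 0.0299) and without all 3 (-1.89, adjusted p = 0.00185). It also passed with median-of-ratios size factors (-1.22, adjusted p = 0.0381) and quantile normalization (-1.25, adjusted p = 0.0385). The part of epididymal RNA in the Ldhb values was not tested further.

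Ldha (chr7:46842274-46855627) was 231, 261, 271 and 250 FPKM in chow WT and 367, 353, 294 and 353 FPKM in HFD WT. It was 220, 167, 481 and 379 FPKM in chow KO and 264, 202, 273 and 185 FPKM in HFD KO. HFD WT was above chow WT in all libraries, yet the log2 difference of 0.43 (SE 0.26) did not pass in the fit over the 4 groups (adjusted p = 0.203). With only the 2 WT-labelled groups in the fit it did (adjusted p = 0.0176). In KO-labelled mice the difference was -0.33 (SE 0.26, adjusted p = 0.335), and -0.59 (adjusted p = 0.0469) without chow KO replicate 2. The lowest Ldha of each KO-labelled group was in libraries with epididymal genes, replicate 2 on chow and replicates 2 and 4 on HFD. Without the 3 libraries with epididymal genes the diet difference of Ldha in KO-labelled mice did not pass. The part of epididymal RNA in the Ldha values was not tested further.

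Ldhb held 19.2%, 14.2%, 14.5% and 15.8% of summed lactate dehydrogenase FPKM in chow WT and 6.20%, 2.65%, 2.06% and 4.98% in HFD WT. It held 16.7%, 28.4%, 7.98% and 10.6% in chow KO and 3.75%, 19.3%, 4.14% and 16.8% in HFD KO. The WT-labelled diet groups separated and the KO-labelled ones did not. The Ldha to Ldhb ratio was higher on HFD by 2.31 log2 units in WT-labelled mice (exact permutation p = 0.0286, adjusted 0.0343) and differed by 0.83 in KO-labelled mice (exact p = 0.4, adjusted 0.4). The latter was 0.40 without HFD KO replicate 1, 0.45 without its replicate 3 and 0.42 without chow KO replicate 2, but 1.27 without HFD KO replicate 2. Without the 3 libraries with epididymal genes it was 1.62, and the log2 ratios of the 3 chow libraries (2.31, 3.52 and 3.08) lay below those of the 2 HFD libraries (4.67 and 4.52); this value was added after seeing the data and has no test.

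**Figure D4:**
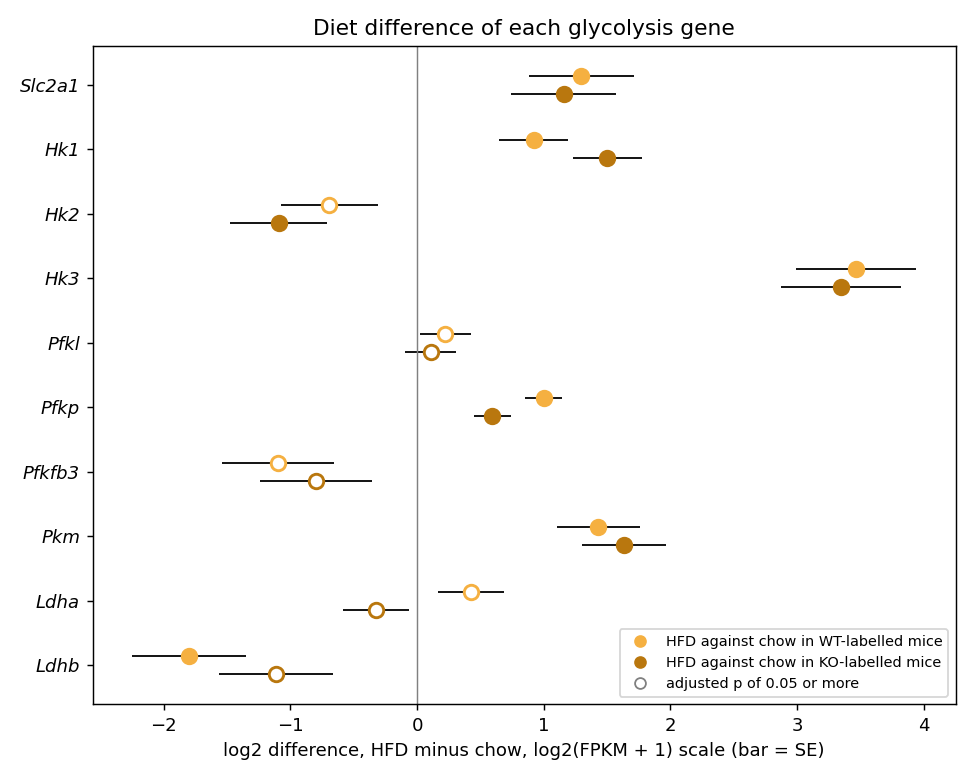
Log2 difference of each gene between HFD and chow on the log2(FPKM + 1) scale, with its SE as a bar, for WT-labelled and KO-labelled mice; open circles mark an adjusted p of 0.05 or more. Hk3 stands farthest to the right, at 3.47 and 3.35, and Ldhb farthest to the left in WT-labelled mice, at -1.80.

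Between genotype labels, 0 of the 10 genes changed on either diet. On chow the adjusted p ranged from 0.632 to 0.986, beside 1.41% of tested genes past the threshold, and 0 of the 10 genes had groups that did not overlap, beside 15.2%. On HFD it ranged from 0.405 to 0.974, beside 0.0316%, with 1 gene whose groups did not overlap, beside 6.83%. That gene was Ldha: the HFD KO libraries (185 to 273 FPKM) were all below the HFD WT libraries (294 to 367 FPKM), a log2 difference of -0.58 (SE 0.26, unadjusted p = 0.0427, adjusted p = 0.405). The lowest of these HFD KO values, 202 and 185 FPKM in replicates 2 and 4, came from libraries with epididymal genes. Replicates 1 and 3 stood at 264 and 273 FPKM, nearer to HFD WT. Over the alternative fits the Ldha difference lay between -0.73 and -0.34 and passed in none. Pfkp differed on HFD by -0.32 (SE 0.15, unadjusted p = 0.0471, adjusted p = 0.415). For the other 8 genes the unadjusted p was above 0.05 on both diets. At an unadjusted p under 0.05, 1861 tested genes differed between labels on chow and 1500 on HFD.

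The interaction, by how much the KO minus WT difference on HFD exceeded the one on chow, passed for 0 of the 10 genes (adjusted p 0.522 to 0.977, beside 0.292% of tested genes). It was -0.76 for Ldha (SE 0.37, adjusted p = 0.522), -0.41 for Pfkp (SE 0.21, adjusted p = 0.542), 0.69 for Ldhb (SE 0.64, adjusted p = 0.801) and 0.58 for Hk1 (SE 0.39, adjusted p = 0.681). A gene called with diet under 1 label and not under the other, such as Hk2 or Ldhb, is therefore not shown to respond differently. None of the 6 isoform ratios differed between labels (lowest adjusted p 0.514 on chow and 0.4 on HFD, exact permutation tests). These genotype comparisons share groups with the diet comparisons above.

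The other genes of glucose metabolism were read from 5 lists, whose counts stand beside the 24.6% higher and 17.2% lower of all tested genes in WT-labelled mice and the 23.5% and 15.3% in KO-labelled mice. Of 14 further glycolytic enzymes tested (5 of 19 were under the filter), 5 rose and 1 fell with HFD under each label. Tpi1, triosephosphate isomerase, rose from 127 ± 3.30 to 301 ± 67.9 FPKM in WT-labelled mice (1.22, SE 0.14, adjusted p = 2.99e-05) and from 151 ± 5.54 to 250 ± 19.6 FPKM in KO-labelled mice (0.72, SE 0.14, adjusted p = 0.00147). Pgk1, phosphoglycerate kinase, rose by 1.04 and 0.93 (adjusted p = 0.00379 and 0.00840). Pgam1, phosphoglycerate mutase, rose by 0.84 and 0.57 (adjusted p = 0.00211 and 0.0204). The second call was lost without HFD KO replicate 1 (0.44, adjusted p = 0.0733) or 3 (0.50, adjusted p = 0.0640), with median-of-ratios size factors (adjusted p = 0.0736) and with the 2 groups alone (adjusted p = 0.0673). Gpi1, glucose-6-phosphate isomerase, rose by 0.68 in KO-labelled mice (adjusted p = 0.00602). The enzyme that fell was Pfkm. The list's median log2 difference was 0.28 in WT-labelled and 0.34 in KO-labelled mice, against 0.06 and 0.08 over all tested genes.

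The remaining enzymes that rose are named to complete the counts, after their values were seen. In WT-labelled mice they were Aldoa, an aldolase (590 to 1008 FPKM, 0.76, adjusted p = 0.00562), and Eno1, an enolase (265 to 390 FPKM, 0.56, adjusted p = 0.0352). In KO-labelled mice it was Eno2, another enolase (1.27 to 3.02 FPKM, 0.78, adjusted p = 0.0279). The Eno1 call was lost without any 1 of the 4 chow WT libraries or without HFD WT replicate 2, 3 or 4 (0.53 to 0.58, adjusted p 0.0568 to 0.0810) and with median-of-ratios size factors (adjusted p = 0.105). The Eno2 call was lost when replicate 3 or 4 of the chow KO group or replicate 1 or 2 of the HFD KO group was left out (0.58 to 0.75, adjusted p 0.0627 to 0.0873) and without the 3 libraries with epididymal genes (adjusted p = 0.131).

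Of 11 tested genes of sugar transport and lactate export (Slc2a5 was under the filter), 2 rose and 4 fell in WT-labelled mice and 3 rose and 3 fell in KO-labelled mice; the median was -0.53 and -0.37. In KO-labelled mice 3 of 11 in the higher direction is near the background. Slc2a3, the transporter GLUT3, fell from 8.94 ± 0.255 to 1.42 ± 0.0957 FPKM in WT-labelled mice (-2.04, SE 0.37, adjusted p = 0.000734). In KO-labelled mice its difference was -0.93 (adjusted p = 0.0604), just short of the threshold. Slc2a8, an intracellular sugar transporter, fell by 0.53 and 0.47 (adjusted p = 0.00828 and 0.0168). The second of these was lost when the fit ran without chow KO replicate 4 (-0.38, adjusted p = 0.0579) or HFD KO replicate 3 (-0.41, adjusted p = 0.0546). Slc2a10 rose by 1.11 and 0.83 (adjusted p = 0.00198 and 0.0129), the second lost without the 3 libraries with epididymal genes (0.66, adjusted p = 0.0530).

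Slc16a3, which encodes the lactate exporter MCT4, was 1.05 ± 0.300 FPKM in chow WT and 5.17 ± 3.78 in HFD WT, and 1.40 ± 1.31 in chow KO and 10.9 ± 8.34 in HFD KO. It rose by 1.39 (adjusted p = 0.0450) and by 2.12 (adjusted p = 0.00587). The first call was lost without any 1 of the 4 chow WT libraries or without HFD WT replicate 2 or 3 (1.04 to 1.47, adjusted p 0.0641 to 0.149). Slc2a6, another sugar transporter, rose by 0.69 in KO-labelled mice (0.685 ± 0.261 to 1.81 ± 0.907 FPKM, adjusted p = 0.0308), a call lost without chow KO replicate 3 or any of replicates 1, 2 and 3 of HFD KO (0.51 to 0.68, adjusted p 0.0568 to 0.110), with quantile normalization (0.47, adjusted p = 0.170) and with the 2 groups alone (adjusted p = 0.0802). In WT-labelled mice the Slc2a6 difference was 0.59 (adjusted p = 0.0566). Slc16a7, the transporter MCT2, fell by 0.66 and 0.99 (adjusted p = 0.0235 and 0.00294). Its call in WT-labelled mice, outside the rule for named genes, was lost without chow WT replicate 1 or 3 or HFD WT replicate 3 (-0.54 to -0.63, adjusted p 0.0555 to 0.0806) and with a constant sum per library (adjusted p = 0.0531). Bsg, the chaperone of lactate transporters, fell by 0.61 in WT-labelled mice (adjusted p = 0.0129).

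Of 15 regulators 3 rose and 3 fell under each label, with medians of -0.24 and -0.17; these counts are near the background in both directions. Pfkfb4, which makes or removes the same bisphosphate as Pfkfb3, rose from 2.16 ± 0.387 to 14.9 ± 3.21 FPKM in WT-labelled mice (2.31, SE 0.23, adjusted p = 9.98e-06) and from 3.87 ± 1.73 to 13.8 ± 2.41 FPKM in KO-labelled mice (1.66, SE 0.23, adjusted p = 0.000167). The liver-type form Pfkfb1 fell by 1.43 and 1.47 (adjusted p = 0.0101 and 0.00946). Hif1a, the oxygen-regulated activator of many glycolytic genes, rose by 0.81 and 0.86 (adjusted p = 0.0105 and 0.00805), and Tigar, a fructose bisphosphatase, by 0.68 and 0.46 (adjusted p = 0.00100 and 0.0122). In KO-labelled mice the Tigar call was lost without the 3 libraries with epididymal genes (0.34, adjusted p = 0.0872) and with quantile normalization (0.29, adjusted p = 0.131). With only the KO-labelled groups in the fit the Tigar and Hif1a calls were both lost (adjusted p = 0.0538 and 0.0511).

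Txnip, which restrains glucose uptake, fell from 1400 ± 85.6 to 360 ± 48.0 FPKM in WT-labelled mice (-1.97, SE 0.31, adjusted p = 0.000271). It was also lower in chow KO (561 ± 309 FPKM) than in chow WT (-1.49, adjusted p = 0.0272), a call lost without any 1 of the 4 chow WT libraries or without chow KO replicate 1 or 2 (-1.25 to -1.52, adjusted p 0.0668 to 0.0990). Mlxipl, the carbohydrate-response factor ChREBP, fell by 1.64 in KO-labelled mice (adjusted p = 0.00218). The third regulator that fell was Vhl in WT-labelled mice (-0.63, adjusted p = 0.0163) and Egln1 in KO-labelled mice (-0.33, adjusted p = 0.0253). Both belong to the pathway that degrades Hif1a protein. The Vhl call was lost without chow WT replicate 2 or HFD WT replicate 2 or 3 (-0.50 to -0.55, adjusted p 0.0538 to 0.0604), and the Egln1 call without chow KO replicate 1 or HFD KO replicate 1 (-0.28 and -0.25, adjusted p = 0.0712 and 0.0911). With only the KO-labelled groups in the fit the Egln1 call was lost too (adjusted p = 0.0847).

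Of 16 genes that decide the fate of pyruvate, 0 rose and 4 fell in WT-labelled mice and 1 rose and 8 fell in KO-labelled mice, with medians of -0.37 and -0.84. The 4 of 16 that fell in WT-labelled mice are not far above the background of 17.2%, and the 8 of 16 in KO-labelled mice stand beside 15.3%. Gpt2, mitochondrial alanine transaminase, fell from 133 ± 15.8 to 33.0 ± 11.3 FPKM (-2.03, adjusted p = 0.00013) and from 132 ± 24.8 to 31.3 ± 12.5 FPKM (-2.11, adjusted p = 0.000151). Pdha1, the E1 subunit of pyruvate dehydrogenase, fell by 0.91 and 1.27 (adjusted p = 0.0149 and 0.00257; the first was 0.0537 without HFD WT replicate 3). Pdk2, a kinase that inactivates that enzyme, fell by 2.53 and 1.07 (adjusted p = 2.59e-05 and 0.00838), and Mpc2, of the mitochondrial pyruvate carrier, by 1.35 in KO-labelled mice (adjusted p = 0.00770).

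Pdk4, another of these kinases, was 124 ± 27.3 FPKM in chow WT and 49.4 ± 3.86 in HFD WT, and 17.9 ± 10.8 in chow KO and 49.9 ± 29.0 in HFD KO. It fell with HFD by 1.29 in WT-labelled mice (adjusted p = 0.0207) and rose by 1.50 in KO-labelled mice (adjusted p = 0.0104), and it was lower in chow KO than in chow WT by a log2 difference of -2.92 (adjusted p = 0.00223). The interaction was 2.79 (SE 0.58, adjusted p = 0.0655), short of the threshold, and passed it without chow KO replicate 3 (3.04, adjusted p = 0.0459) or 4 (3.06, adjusted p = 0.0417). The rise in KO-labelled mice was 0.54 (adjusted p = 0.164) without the 3 libraries with epididymal genes and missed the threshold with only the KO-labelled groups in the fit (adjusted p = 0.0585), and the fall in WT-labelled mice was -1.22 (adjusted p = 0.0525) without chow WT replicate 2 and -1.18 (adjusted p = 0.0578) without chow WT replicate 4.

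Of 8 genes of the pentose phosphate pathway 1 rose and 1 fell in WT-labelled mice and 0 rose and 3 fell in KO-labelled mice, with medians of -0.06 and -0.18. Called genes in either direction made up 41.9% and 38.9% of all tested genes, so 2 of 8 and 3 of 8 do not exceed the background. By direction, the 3 of 8 that fell in KO-labelled mice stand beside 15.3% of all tested genes. Pgd, 6-phosphogluconate dehydrogenase, rose from 114 ± 3.03 to 273 ± 69.9 FPKM in WT-labelled mice (1.22, adjusted p = 0.000529). H6pd, the form of the first enzyme in the endoplasmic reticulum, fell by 1.64 and 0.73 (adjusted p = 3.02e-05 and 0.00755). On chow it was lower in KO-labelled mice by a log2 difference of -0.92 (adjusted p = 0.0246), a call lost without chow WT replicate 2, 3 or 4 or chow KO replicate 2 or 4 (-0.82 to -0.92, adjusted p 0.0593 to 0.110). Rpia and Tkt were the others that fell in KO-labelled mice, by 0.43 (adjusted p = 0.0235) and 1.13 (adjusted p = 0.0405). The Rpia call was lost without chow KO replicate 4 or HFD KO replicate 2 or 3 (adjusted p 0.0538 to 0.0737), and the Tkt call without chow KO replicate 3 (-0.68) or 4 (-0.85) or any 1 of the HFD KO libraries (adjusted p 0.0554 to 0.132 over these fits). With only the KO-labelled groups in the fit both the Rpia and the Tkt call were lost (adjusted p = 0.108 and 0.145). Between labels on HFD, 0 genes of the 5 lists changed, beside 0.0316% of all tested genes. The interaction also passed for 0 genes of the 5 lists, beside 0.292% of all tested genes. With so low a background, these counts of 0 say little about the lists. A call under 1 label alone is therefore not shown to be particular to that label.

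**Figure D5:**
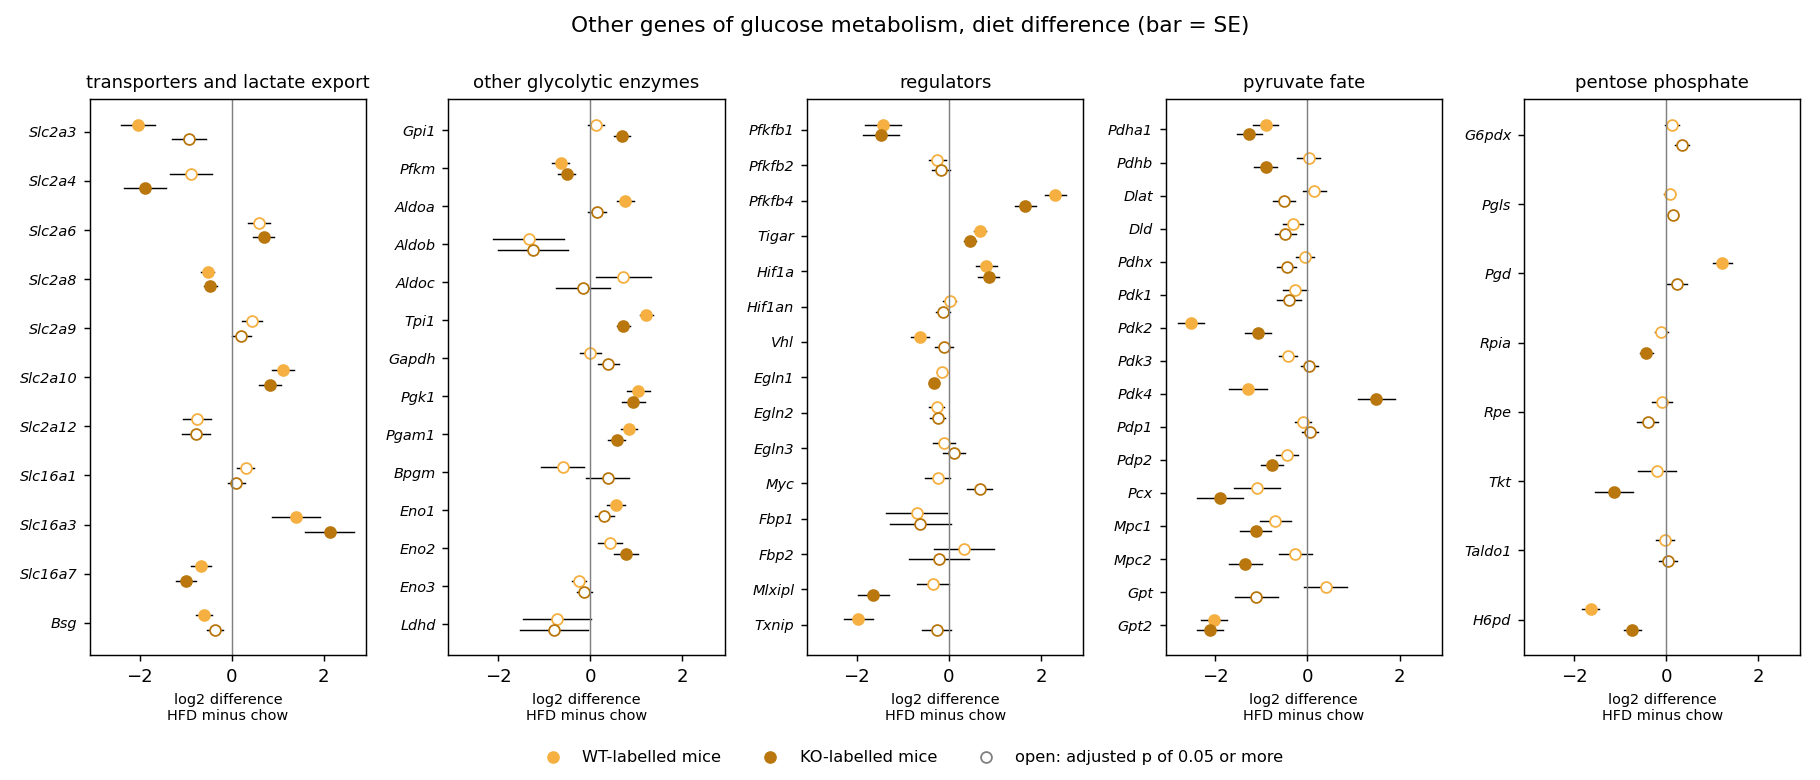
Log2 difference between HFD and chow, with its SE as a bar, for the tested genes of the 5 lists on the log2(FPKM + 1) scale, in WT-labelled and KO-labelled mice; open circles mark an adjusted p of 0.05 or more. Pfkfb4 stands farthest to the right among regulators, at 2.31 and 1.66, and Pdk4 lies on opposite sides of 0 under the 2 labels.

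Across the 16 libraries the members fell into those that followed Hk3 and those that followed Hk2. Pkm had a Pearson r of 0.95 with Hk3 and 0.89 with Slc2a1, Pfkfb3 had 0.90 with Hk2, and Ldhb had -0.85 with Hk3, on log2(FPKM + 1). Ldha and Pfkl followed neither, with r between -0.36 and 0.25 with each other and with the other members. These values describe libraries that share their diet groups and cell makeup, and much of each r lies between the diets.

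For each member up to 3 tested genes with the most similar pattern over the 16 libraries, by Pearson r, were named, leaving out the other members and predicted genes. For Hk3 they were Tnfrsf11a (r = 0.997), Adssl1 (0.994) and Kcnab2 (0.994), and over the 8 HFD libraries alone their r was 0.983, 0.969 and 0.979. For Pkm they were Ly9 (0.979), Akr1b8 (0.973) and Wipf1 (0.972), for Slc2a1 Ptpn1 (0.971), Cd276 (0.969) and Nup62 (0.966), and for Hk1 Edem2 (0.978), Sh3bgrl3 (0.976) and Fhl2 (0.972). Pfkp was closest to Clic4 (0.958), Lhfpl2 (0.957) and Sh3kbp1 (0.956). Over the HFD libraries alone r was lower for these, at 0.783, 0.847 and 0.828, and for Hk1 it was 0.979, 0.942 and 0.858. The HFD libraries are part of the 16 used to choose these genes. Tnfrsf11a encodes the receptor RANK and Ly9 a lymphocyte and macrophage surface receptor. These are examples, and the genes named were not sorted by cell type.

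Hk2 was closest to Gpat3 (0.961), Bmpr1a (0.948) and Aco1 (0.945), and Pfkfb3 to Plin4 (0.977), Cdc42ep1 (0.975) and Atp2b4 (0.954). Gpat3 is an enzyme of triglyceride synthesis and Plin4 a lipid droplet protein, again as examples only. Ldhb was close to Aff3 (0.980) and Nicn1 (0.963). Over the 8 HFD libraries alone r was 0.981 and 0.960 for these. Ldha and Pfkl had weaker matches: Ap3s1 (0.835), Hsd17b12 (0.776) and Kpna3 (0.764) for Ldha, and Rmdn3 (0.773), Matn2 (0.768) and Ei24 (0.766) for Pfkl. On HFD alone their r was 0.758, 0.745 and 0.929 for Ldha and 0.867, 0.789 and 0.832 for Pfkl.

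Exons of Slc2a1, Hk1, Hk3 and Pfkp overlap exons of a gene on the opposite strand in GENCODE (Gm12868, Hk1os, Unc5a and Pitrm1), and those of Pkm overlap Gm49759 on the same strand. Without a stated library strand, reads from such a pair cannot be told apart.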

How the data were processed

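RNA-seq libraries of epididymal white fat from 16 mice (4 per group) were used as the FPKM table that the authors deposited, 1 column per library. Per the submitters' processing notes, STAR 2.7 was used, and the genome builds named are GRCm38.p6 and mm10. The sources used here do not give the quantifier, annotation, filters or strand. Because FPKM do not keep the number of reads, depth is unknown for every value, and counting error could not be computed. Of 20101 genes, 19945 matched the reference gene table by number; 14408 circular RNA entries and 1 blank row were left out, and 26 gene symbols turned into dates were restored.

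The 12667 genes that reached 1 FPKM in 4 or more libraries were fitted as log2(FPKM + 1) with limma 3.58.1 (R 4.3.3), using 4 group means and empirical Bayes with a variance trend. P-values were adjusted by Benjamini-Hochberg over all tested genes, with a threshold of 0.05. A pseudocount of 1 understates the change of low genes. The fit was tested on simulated data. Isoform ratios used a pseudocount of 0.1 and exact permutation tests (Python 3.11.15). Values are mean ± SD of 4 libraries.

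All 10 genes are reported in each comparison. From 5 lists of other glucose genes, up to 3 per direction and diet comparison with the smallest p are named. Genes called between labels are named too, as are calls that complete counts of 5 or fewer (Aldoa, Eno1, Eno2). The second label's value of a named gene is given where the gene was called there too, and for Slc2a3, Slc2a4 and Slc2a6. The 9 lists of cell markers (adipocyte, macrophage, lipid-associated macrophage, neutrophil, lymphocyte, endothelial, red cell, skeletal muscle, epididymis) are given as sums and counts. Of the genes most similar to a member, 1 is not reported here. The genes and lists were chosen with earlier results of these data known. Alternatives were 3 scalings, pseudocounts, filters, a replicate block, no variance trend, the 2 groups alone, a threshold of 0.1 and leaving out libraries. For genes of the 5 lists, not every fit under which a call was lost is named.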

Additional observations from a re-analysis of the deposited data

Results flagged for a closer look

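In 64 groups of 4 libraries (the FPKM of the 10 genes and the 6 isoform log2 ratios, in each of the 4 groups), the highest or lowest library was compared with the others by Dixon's criterion, which chance passes in about 1 group in 20; 2 groups passed. Pfkfb3 stood at 215.27 FPKM in chow KO replicate 1, apart from the 115 to 119 FPKM of the other 3 chow KO libraries. Ldhb stood at 66.27 FPKM in chow KO replicate 2, the library with the most epididymal RNA, apart from 41.8 to 44.9 FPKM in the other 3.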

How the results depend on the processing

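The count of the 10 genes past the threshold stayed within 1.5 times its value under each alternative run: 4 to 8 in both diet comparisons (6 in the reported fits) and 0 in the genotype and interaction comparisons. Leaving out each library gave 4 to 8 genes in WT-labelled and 4 to 7 in KO-labelled mice. The split into higher and lower was 5 and 2 in WT-labelled mice with median-of-ratios size factors, and in KO-labelled mice 4 and 2 with these or with quantile normalization and 4 and 0 without a filter or with the 2 groups alone. Quantile normalization moved the median of all tested genes by -0.10 and -0.15 in the diet comparisons and by -0.11 between labels on HFD, and median-of-ratios moved the last by -0.13. Of all called genes, the percentage that was higher went from 58.8 to 52.9 (median-of-ratios), 66.6 (constant sum) and 45.8 (quantile) in WT-labelled mice, and from 60.5 to 49.7, 63.5 and 42.3 in KO-labelled mice. Hk3, Pfkp and Pkm were called under both labels, Ldhb in WT-labelled mice and Hk1 in KO-labelled mice, in every fit run. The sign of the Pfkl difference in KO-labelled mice turned with quantile normalization (-0.0322) and without the 3 libraries with epididymal genes (-0.0413); the cause was not tested. Over all tested genes, the label comparison on chow called 178 genes, and 31 higher and 84 lower with the block or 110 higher and 247 lower with the 2 groups alone; without 1 library it called fewest without chow WT replicate 2 (11 higher and 44 lower) and, of the others, 11 and 50 without chow WT replicate 4, 15 and 64 without replicate 3, 21 and 69 without replicate 1 and 20 and 67 without chow KO replicate 1. That on HFD called 4, and 4 higher and 5 lower with median-of-ratios, 4 and 4 with quantile normalization, 1 and 1 with the 2 groups alone, 0 and 0 with a mean FPKM of at least 5, 16 and 3 without the 3 libraries with epididymal genes, and 8 and 2 without HFD KO replicate 3. The interaction called 37, and 16 higher and 2 lower with the block, and 19 and 2, 12 and 1, 14 and 1, and 11 and 1 without chow WT replicate 1, 2, 3 and 4. Between labels, 5 of the 10 signs on chow, 6 on HFD and 6 of the interaction turned in at least 1 fit.

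With the replicate number as a block, the counts were 6 and 6 in the diet comparisons and 0 in the others. Same-numbered libraries did not deviate together throughout (correlations from -0.63 to 0.37). These correlations cannot exclude a shared litter, cage or day, and the labels do not say that the numbers mark one. Under the block the chow difference of H6pd between labels had an adjusted p of 0.0592. Without the 3 libraries with epididymal genes (added after seeing the data), the Slc2a1 to Slc2a4 ratio differed with diet by 4.80 in KO-labelled mice and the Ldha to Ldhb ratio between labels on HFD by -0.13; the cause was not tested. Leaving out 1 library turned the sign of 5 of the 12 ratio differences between labels, none of which had passed. Unknown depth limits statements on genes of low FPKM, and 4 mice per group limit the exact tests to p = 0.0286.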
